A study of Mus musculus with 12 samples.

Results

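The MHC class II genes described here are 7 mouse genes of antigen presentation, H2-Aa, H2-Ab1, H2-Eb1, H2-DMa, H2-DMb1, Cd74 and Ciita, out of 34741 genes named on the array. They were chosen because the gene name printed on the array equals one of these symbols, and this found 8 probes, 2 of them for H2-Ab1. The set was picked from results of these same arrays, where levels of these genes across treatments and days had already been seen, so their levels and differences are given as a description without a test. Class II molecules are pairs of an alpha and a beta chain that display peptides from endocytosed proteins to CD4 T cells. Cd74 encodes the invariant chain that fills the groove until the endosome is reached, H2-DM exchanges its remnant for peptide, and Ciita encodes the coactivator that switches the whole set on through a shared promoter element. In liver, dendritic cells, B cells and Kupffer cells (the resident macrophages) are the usual carriers of class II, and hepatocytes normally carry little.

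The question put to these arrays was how the liver responds to DEN (diethylnitrosamine, an alkylating carcinogen of the liver), to ATRA (all-trans-retinoic acid, a ligand of the retinoic acid receptors) and to loss of G0s2, an inhibitor of triglyceride lipolysis. Liver RNA of wild type male ICR mice, bought at 5 weeks of age and adapted for 1 week, was hybridised to 12 arrays, 1 for each of 6 treatments at day 2 and at day 7. The vehicle group drank water. The DEN group drank 80 mg/L DEN, about 400 µg per day, and the ATRA group 30 mg/L ATRA, about 150 µg per day, while the ATRA+DEN group is named for both agents. The control siRNA and G0s2 siRNA groups received 1.6 nmol of a scramble siRNA or of siRNA against G0s2 into a vein with a lipid carrier. The protocol sets that injection on the day before DEN, but the labels of the siRNA arrays name no DEN, so whether these mice drank it is unknown. ICR is an outbred stock, in which mice differ in genotype, and the labels do not say whether 1 animal or a pool stands behind an array. For 3 arrays of day 7 the treatment characteristic contradicts the title, and the titles were used.

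An array detected from 41.0% to 50.7% of its 55681 probes well above background, none was saturated, and the single array per group limits the precision. G0s2 was lower with G0s2 siRNA than with control siRNA at day 2 (log2 level 1.99 against 3.84) and at day 7 (2.26 against 3.45). Cyp26a1, the retinoic acid hydroxylase that ATRA induces, stood between 4.34 and 7.10 on the 4 arrays titled ATRA or ATRA+DEN and between 0.42 and 2.38 on the other arrays. The arrays lie on 4 slides. The first held vehicle, DEN, ATRA and ATRA+DEN of day 2, the second both siRNA arrays of day 2, the third vehicle and DEN of day 7, and the last the other 4 arrays of day 7. Day and slide therefore cannot be told apart, and neither can siRNA and slide at day 2. Levels below are log2 intensities relative to the 75th percentile of the array, so that 0 is that percentile and 1 unit is a 2-fold step. They are compared between arrays for 1 probe, not between probes, which differ in brightness. The probes lie on chromosome 17 for H2-DMa (chr17:34274300-34274863, mm9), H2-DMb1 (chr17:34297109-34297168), H2-Ab1, H2-Aa (chr17:34421285-34421344) and H2-Eb1 (chr17:34453075-34453134), on chromosome 16 for Ciita (chr16:10526568-10526627) and on chromosome 18 for Cd74. Exon annotation of that build was not used here.

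Cd74, the invariant chain, was high on both siRNA arrays of day 2. At day 2 its level was 2.17 in vehicle, 2.54 in DEN, 1.90 in ATRA, 2.58 in ATRA+DEN, 4.08 in control siRNA and 4.82 in G0s2 siRNA. At day 7 it was 4.15 in vehicle, 3.67 in DEN, 3.60 in ATRA, 3.30 in ATRA+DEN, 3.36 in control siRNA and 2.63 in G0s2 siRNA. The siRNA arrays were thus the highest of day 2, and the array with G0s2 siRNA the lowest of day 7. Over the 12 arrays Cd74 spanned 2.91 units, or 7.54-fold.

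H2-Ab1, the beta chain of the I-A molecule, followed the same course on both of its probes. Probe 1 read 2.67 in vehicle, 3.24 in DEN, 2.56 in ATRA, 3.28 in ATRA+DEN, 4.62 in control siRNA and 5.00 in G0s2 siRNA at day 2. At day 7 it read 4.27, 3.76, 3.91, 3.74, 3.80 and 2.87 in the same order of treatments. As for Cd74, the 4 arrays without siRNA were low at day 2 and G0s2 siRNA was the lowest at day 7. The other groups of day 7 lay between 3.74 and 4.27 on this probe, and between 3.30 and 4.15 for Cd74. Probe 2 read 2.39, 2.89, 2.44, 2.92, 4.43 and 4.93 at day 2 and 3.79, 3.30, 3.69, 3.64, 3.70 and 2.66 at day 7. The pair of probes are 60 bases long and overlap by 51 bases on chromosome 17 (chr17:34406296-34406355 and chr17:34406305-34406363, mm9), with 1 mismatch, T51C, counted from the 5′ end of probe 1. The mismatch is shown in capitals in the stretch that both share, because it is the difference between probes that otherwise read the same stretch of transcript:
H2-Ab1 probe 1: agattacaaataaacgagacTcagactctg
H2-Ab1 probe 2: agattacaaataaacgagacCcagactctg
Probe 1 exceeded probe 2 by 0.07 to 0.48 units on the 12 arrays, with a median of 0.22, so differences in H2-Ab1 between arrays depend in part on the probe where they are small.

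H2-DMa, the alpha chain of the peptide exchanger H2-DM, read -2.03 in vehicle, -1.56 in DEN, -2.59 in ATRA, -1.78 in ATRA+DEN, -0.12 in control siRNA and -0.44 in G0s2 siRNA at day 2. At day 7 it read -1.03, -1.82, -1.48, -1.64, -0.72 and -1.43 in that order. It shared the high siRNA arrays of day 2 with Cd74, but at day 7 it was highest in control siRNA, where Cd74 was not.

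H2-Aa, the alpha chain of I-A, and H2-DMb1, the beta chain of H2-DM, had their lowest values on the same pair of arrays. H2-Aa read -0.62 in vehicle, 0.01 in DEN, -2.17 in ATRA, 0.09 in ATRA+DEN, 0.79 in control siRNA and 0.90 in G0s2 siRNA at day 2. At day 7 it read 0.75, 0.35, -0.77, -2.47, -0.15 and -0.76. The lowest values belonged to ATRA of day 2 and ATRA+DEN of day 7, and 1.40 units, its widest gap, separated them from the other 10 arrays. H2-DMb1 read 0.20 in vehicle, 0.56 in DEN, -1.04 in ATRA, 0.60 in ATRA+DEN, 0.68 in control siRNA and 0.72 in G0s2 siRNA at day 2, and 1.38, 1.01, -0.24, -2.71, -0.35 and -0.92 at day 7. Its lowest array was also ATRA+DEN of day 7, followed by ATRA of day 2. ATRA of day 2 was also the lowest array for Cd74, H2-DMa and probe 1 of H2-Ab1, whereas ATRA+DEN of day 7 was not. Without the ATRA+DEN array of day 7, the span of H2-DMb1 was 2.42 units, against 4.09 with it.

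H2-Eb1, the beta chain of the I-E molecule, had the widest range of the set and took either a low or a high level. It was read by 1 probe, and the sequence of these outbred mice under that probe is unknown. At day 2 it read -2.22 in vehicle, -1.18 in DEN, 1.56 in ATRA, -1.45 in ATRA+DEN, 3.81 in control siRNA and 4.19 in G0s2 siRNA. At day 7 it read -0.44 in vehicle, -1.26 in DEN, 2.83 in ATRA, 3.44 in ATRA+DEN, 3.64 in control siRNA and 1.93 in G0s2 siRNA. The 5 low arrays lay between -2.22 and -0.44 and the 7 high arrays between 1.56 and 4.19, with 2.00 units between them. Low arrays were vehicle and DEN of both days and ATRA+DEN of day 2. All 4 siRNA arrays, both ATRA arrays and ATRA+DEN of day 7 were high. The span of 6.40 units, or 84.7-fold, was matched or exceeded by 69 of the 21181 genes tested, which is 0.326% of them. The median span over these genes was 1.39 units, and H2-DMb1, H2-Aa and Cd74 were matched by 2.61%, 6.37% and 11.5% of them.

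Ciita, the coactivator, was dim. It was well above background on 6 of 12 arrays, and each of these 6 values lay between -3.11 in DEN of day 2 and -2.11 in G0s2 siRNA of day 2. It was not well above background in vehicle or ATRA of day 2, nor in DEN, ATRA, ATRA+DEN and G0s2 siRNA of day 7. The highest readings were -2.11 in G0s2 siRNA and -2.19 in control siRNA of day 2, the arrays on which Cd74 was high as well. Differences that involve a dim Ciita reading are given below as bounds.

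**Figure D1:**
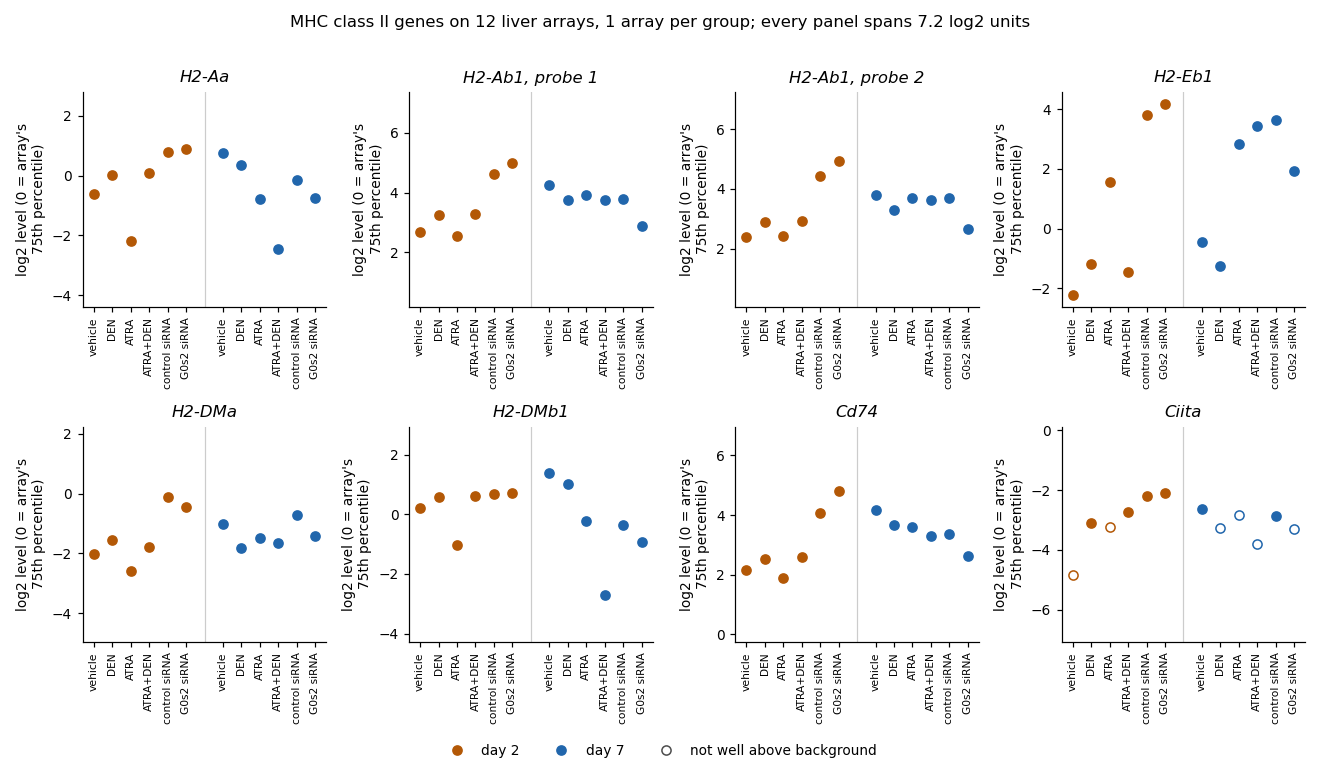
Log2 level of each of the 8 class II probes (vertical axis, 0 is the 75th percentile of the array) on the 12 arrays, orange for day 2 and blue for day 7, 1 point per array; open points were not well above background. H2-Eb1 falls into 5 arrays between -2.22 and -0.44 and 7 between 1.56 and 4.19, whereas the H2-Ab1 probes and Cd74 vary over at most 2.91 units.

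Whether the genes moved together was described by correlating their levels over the 12 arrays after each day's mean was subtracted. These are descriptions of 12 arrays that share scaling and slides. Cd74 and H2-Ab1 moved closely together, with r = 0.986 for probe 1 of H2-Ab1 and 0.962 for probe 2. Within day 7 these values were 0.954 and 0.779. By probe 1, each was the gene most like the other among 15748 genes well above background on every array. H2-DMa went with them at r = 0.813 to Cd74 and 0.845 to H2-Ab1 over all 12 arrays, but the value for Cd74 fell to 0.371 without the siRNA arrays of day 2. H2-Aa and H2-DMb1 formed a second pair with r = 0.911, and H2-DMb1 ranked first of the 15748 genes for likeness to H2-Aa. The chains of a heterodimer were less alike than that. H2-Aa correlated with its partner H2-Ab1 at r = 0.638, and H2-DMa with its partner H2-DMb1 at r = 0.362.

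H2-Eb1 went with some of these genes and not with others. Its correlation was -0.10 with H2-Aa and -0.40 with H2-DMb1. It was 0.583 with H2-DMa, 0.524 and 0.659 with probes 1 and 2 of H2-Ab1, and 0.468 with Cd74. The value for Cd74 changed sign to -0.53 without the siRNA arrays of day 2, and it was 0.795 within day 2 and -0.50 within day 7, each over 6 arrays. Those for H2-DMa and the H2-Ab1 probes were 0.694, 0.791 and 0.841 within day 2, and 0.299, -0.22 and 0.14 within day 7. Within day 7 the correlation of H2-Eb1 with H2-DMb1 was -0.78, while that of H2-Aa with H2-DMb1 was 0.974.

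Subtracting the log2 level of Cd74 on the same array, and centring each gene on its median over the arrays, shows which chains departed from the invariant chain. H2-Ab1 stayed within -0.35 and 0.26 of its median, and H2-DMa within -1.05 and 0.37. H2-Aa ranged from -2.37 to 0.90 and H2-DMb1 from -2.84 to 1.20, with ATRA+DEN of day 7 the lowest array for both. H2-Eb1 lay between -4.19 and -2.98 on 5 arrays and between -0.04 and 1.02 on the other 7, with no array in the 2.94 units between. Of 15748 genes treated the same way, 7 (0.0445%) had a gap as wide, against a median widest gap of 0.759. The 5 arrays were again vehicle and DEN of both days and ATRA+DEN of day 2.

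**Figure D2:**
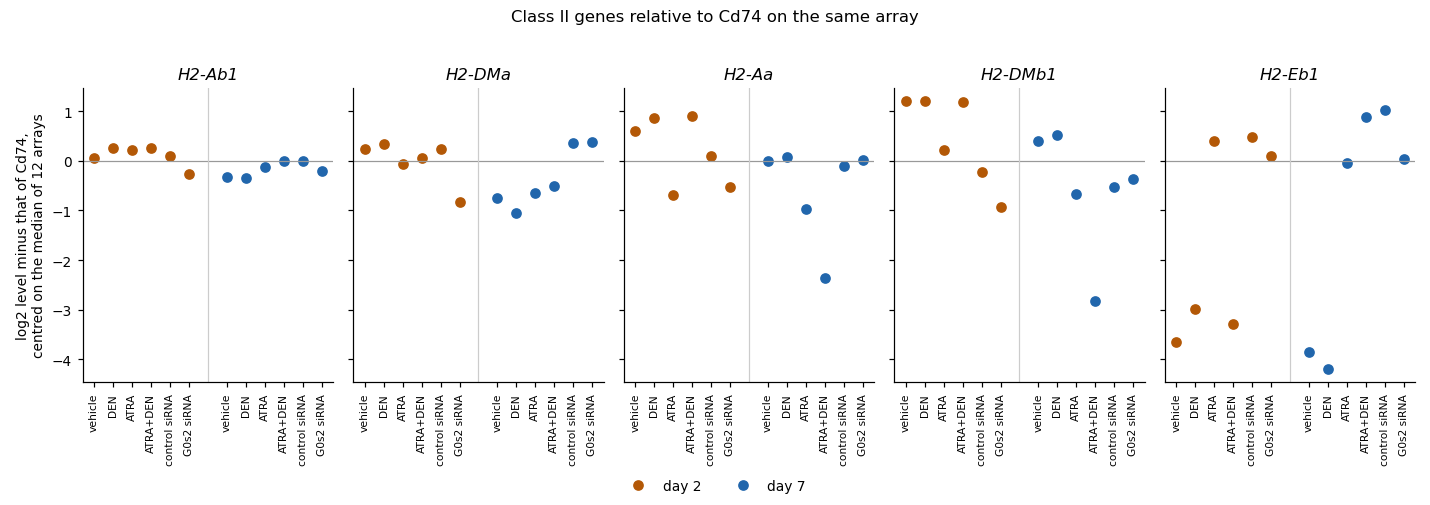
Log2 level minus that of Cd74 on the same array, centred on the median of 12 arrays (vertical axis), for 5 class II genes, orange for day 2 and blue for day 7, 1 point per array. H2-Ab1 stays within 0.35 units of its median, and H2-Eb1 lies either between -4.19 and -2.98 (5 arrays) or between -0.04 and 1.02 (7 arrays).

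The shared promoter element of class II genes contains an X box and a Y box, bound by the RFX complex and by NF-Y, which together hold Ciita in place. RefSeq promoters on GRCm38.p6, 250 bases before to 50 after the start, were available for 4 of the 7 genes. Those of the 3 genes that departed most from Cd74 are shown from base -140 to base -21 relative to the start, the stretch where class II promoters usually carry the element. Capitals mark the Y box core GATTGG, or CCAATC where it lies on the other strand, and the X box core AACNGATG:
H2-Eb1, chr17:34305727-34305846, plus strand: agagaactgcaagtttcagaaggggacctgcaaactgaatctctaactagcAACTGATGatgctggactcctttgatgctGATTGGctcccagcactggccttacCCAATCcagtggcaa
H2-DMb1, chr17:34153051-34153170, plus strand: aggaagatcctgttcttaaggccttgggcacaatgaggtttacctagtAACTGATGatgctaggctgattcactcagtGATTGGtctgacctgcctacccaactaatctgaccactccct
H2-Aa, chr17:34287844-34287963, minus strand: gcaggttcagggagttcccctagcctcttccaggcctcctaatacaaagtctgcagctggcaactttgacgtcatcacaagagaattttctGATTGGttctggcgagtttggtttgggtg
Both strands were searched, and the motifs do not overlap. H2-Eb1 and H2-DMb1 held both cores, and the same 8 letters, AACTGATG, began at -89 in the first and at -92 in the second. Of these exact patterns H2-Aa held only the Y box core, at -49, and in H2-DMa that core was found at -199. X boxes with other letters were not searched for, so their absence is not shown. Of 32851 promoters of this length, 16.1% held the Y box core, 2.32% the X box core and 0.335% both. H2-Eb1 and H2-DMb1, whose levels ran opposite at day 7, thus shared these letters in the reference genome. The sequences of the ICR mice were not read.

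DEN alone went with higher class II at day 2 and lower class II at day 7. At day 2, 6 of the 6 genes that were bright on every array were higher in DEN than in vehicle, by 0.36 (H2-DMb1) to 1.04 (H2-Eb1) units with a median of 0.52, where 45.4% of all genes tested were higher. H2-Eb1 was 2.05-fold higher, and the other 5 genes stayed under 2-fold, a step that 3.13% of all genes took upward. Ciita was at least 1.32-fold higher. At day 7, 6 of 6 were lower, by 0.37 (H2-DMb1) to 0.83 (H2-Eb1) units, where 53.1% of all genes were lower. None reached 2-fold, which 6.06% of all genes did downward, and Ciita was at least 1.54-fold lower. The log2 of the summed level of 15 Kupffer cell and macrophage markers was 6.67 in vehicle and 6.55 in DEN at day 2, and 7.06 and 6.64 at day 7. That of 10 sinusoidal endothelium markers stood at 7.46 in vehicle against 7.22 in DEN on day 2, and at 6.99 against 6.22 on day 7. Their part in these differences was not tested. By the treatment characteristic in place of the title, the array titled ATRA+DEN would stand for DEN at day 7, and then H2-Eb1 would be higher by 3.88 units and the other 5 bright genes lower, where 49.7% of all genes were lower.

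By the titles, DEN on top of ATRA gave the same direction for 5 of the 6 bright genes at both times, and for H2-Eb1 the opposite one. At day 2, Cd74, H2-Ab1 and H2-DMa were higher in ATRA+DEN than in ATRA by 0.68, 0.72 and 0.81 units, where 49.8% of all genes were higher. Probe 2 of H2-Ab1 was higher by 0.48. H2-Aa was higher by 2.26 and H2-DMb1 by 1.64, both past 2-fold (3.08% of all genes upward), whereas H2-Eb1 was 8.06-fold lower (2.71% of all genes were 2-fold lower). At day 7, Cd74, H2-Ab1 and H2-DMa differed by -0.31, -0.17 and -0.16, where 53.0% of all genes were lower. Probe 2 of H2-Ab1 differed by only -0.06. H2-Aa was 3.25-fold and H2-DMb1 5.53-fold lower (3.77% of all genes were 2-fold lower), and H2-Eb1 was higher by 0.61. Over the 4 DEN pairs the mean differences were small beside their spread, 0.06 ± 0.55 (SD, n = 4 pairs) for Cd74, 0.20 ± 1.67 for H2-Aa and -0.55 ± 1.83 for H2-Eb1. Across all genes, limma called none for DEN after Benjamini-Hochberg adjustment, with 2599 of 21181 genes at an unadjusted p under 0.05.

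Between ATRA and vehicle the genes differed in opposite directions, with 1 array per group and, at day 7, on different slides. ATRA and vehicle differed by 3.78 units (13.7-fold) for H2-Eb1 at day 2 and by 3.26 units (9.61-fold) at day 7, higher in ATRA both times. H2-Aa was lower in ATRA by 2.92-fold and 2.86-fold, and H2-DMb1 by 2.37-fold and 3.08-fold. Cd74 and H2-DMa were lower as well, by 0.27 and 0.56 units at day 2 and by 0.55 and 0.45 at day 7. For H2-Ab1 the probes differed in sign at day 2 (-0.11 and 0.05) and were both lower at day 7 (-0.36 and -0.10). Past 2-fold were therefore 1 gene upward and 2 downward at each time, where 3.51% of all genes went up and 3.36% down at day 2, and 4.36% and 3.65% at day 7.

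Adding ATRA to DEN gave no such pattern at day 2 and a stronger one at day 7. At day 2 every one of the 6 bright genes differed by at most 0.27 units between ATRA+DEN and DEN, on 1 slide, although Cyp26a1 was high. At day 7, H2-Eb1 was 26.0-fold higher, H2-Aa 7.03-fold lower and H2-DMb1 13.2-fold lower in ATRA+DEN than in DEN, where 4.90% of all genes were 2-fold higher and 5.16% lower. Cd74 differed by -0.37 units, H2-DMa by 0.18, and H2-Ab1 by -0.02 on probe 1 and 0.34 on probe 2. At day 7 both ATRA differences lie across slides, so ATRA and slide cannot be told apart there. Within the slide of day 2, the difference of H2-Eb1 was 3.78 without DEN and -0.27 with DEN. The Kupffer cell and macrophage sum was 6.62 in ATRA and 6.69 in ATRA+DEN at day 2, and 6.99 and 6.82 at day 7.

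The mean ATRA difference over 4 pairs, which use the same 8 arrays as the DEN pairs, was 2.87 ± 2.17 (SD, n = 4 pairs) for H2-Eb1, -1.45 ± 1.19 for H2-Aa and -1.64 ± 1.56 for H2-DMb1. It was -0.28 ± 0.25 for Cd74, -0.11 ± 0.18 for H2-Ab1 and -0.27 ± 0.33 for H2-DMa. With the slide as block in place of the pair, H2-Eb1 was at 1.76, H2-Aa at -0.73 and H2-DMb1 at -0.60. Normexp background correction gave -0.86 for H2-Aa and -1.06 for H2-DMb1, and with the day-7 arrays of DEN and ATRA+DEN left out H2-DMb1 was at -0.94. For H2-Eb1 0.0236% of all genes had a mean as high. limma with Benjamini-Hochberg adjustment called no gene for ATRA, with 1231 at an unadjusted p under 0.05. By the treatment characteristic these means would be 0.52 for H2-Eb1, -0.04 for H2-Aa and 0.22 for H2-DMb1, so they rest on the titles of day 7, with which the levels of Cyp26a1 go.

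**Figure D3:**
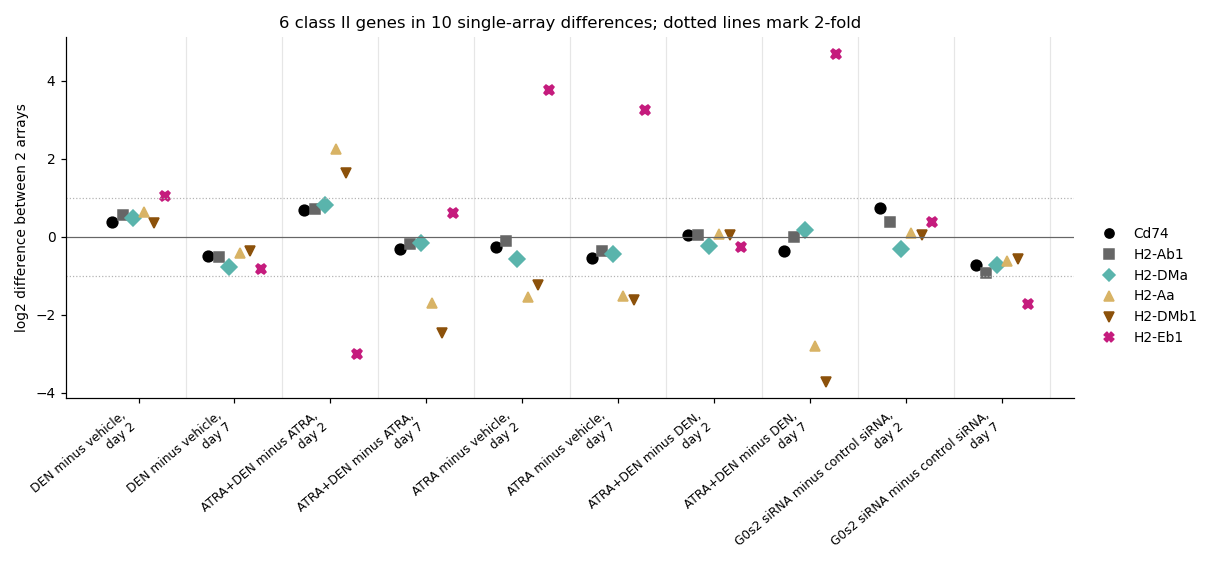
Log2 difference between 2 arrays (vertical axis) for 6 class II genes in 10 matched differences, 1 point per gene; the dotted lines mark 2-fold. The 6 symbols lie closest together for ATRA+DEN minus DEN at day 2 (within 0.35 units) and are farthest apart for the same difference at day 7, where H2-Eb1 reaches 4.70 and H2-DMb1 -3.72.

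G0s2 siRNA against control siRNA gave small and mixed differences at day 2 and lower class II at day 7. At day 2, 5 of 6 bright genes were higher, where 58.4% of all genes were, and none by 2-fold (2.66% of all genes). Cd74 differed most, by 0.74 units, and H2-DMa was lower by 0.32. At day 7, 6 of 6 were lower, where 42.7% of all genes were, by 0.57 (H2-DMb1) to 1.71 (H2-Eb1) units, and Ciita was at least 1.17-fold lower. H2-Eb1, 3.27-fold lower, was the one gene of the set past 2-fold (4.14% of all genes downward), while H2-Ab1 was lower by 0.93 on probe 1 and 1.05 on probe 2. Kupffer cell and macrophage markers were lower with G0s2 siRNA at both times, with a log2 of their summed level of 7.88 against 8.43 at day 2 and 6.44 against 7.15 at day 7. Their part in the result was not tested. limma called no gene for G0s2 siRNA, with 1435 at an unadjusted p under 0.05 before Benjamini-Hochberg adjustment.

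Both siRNA arrays of day 2 stood above all 4 other arrays of that day for 7 of the 7 genes, where 17.8% of all genes did so. The mean difference was 4.82 units for H2-Eb1, 2.15 for Cd74, 1.87 for H2-Ab1, 1.71 for H2-DMa, 1.52 for H2-Aa and 0.62 for H2-DMb1. Against the 3.13% of all genes that did not overlap and were at least 2-fold higher, this held for 5 of the 6 bright genes, all except H2-DMb1. Ciita, for which 2 of the 4 other readings were not well above background, was at least 2.00-fold higher, so it lay at the 2-fold limit. For that bound a dim reading was raised to the dimmest probe well above background on its array, unless it already read higher. For H2-DMb1 the groups were parted by a narrow margin, from 0.60 in ATRA+DEN to 0.68 in control siRNA. At day 7, when the siRNA arrays shared a slide with ATRA and ATRA+DEN, the groups overlapped for every one of the 7 genes. This comparison was added after the values were seen.

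The Kupffer cell and macrophage markers moved with it. The log2 of their summed level was 7.88 and 8.43 on the siRNA arrays of day 2 and between 6.55 and 6.69 on the other 4, with 14 or 15 of 15 markers well above background. At day 7 it was 6.44 to 7.15 with siRNA and 6.64 to 7.06 without. In liver tissue, more cells of a type and more RNA per cell cannot be told apart, and the part of these cells in the result was not tested. B cell sums overlapped, at 2.32 to 2.38 against 2.12 to 2.38 at day 2, with 3 to 5 of 10 markers well above background. Cd22 (1.08 to 1.86 over the 12 arrays) was the brightest B cell marker. The median level of the 10 B cell markers was higher with siRNA at day 2, -3.53 and -3.51 against -5.13 to -3.64. Blk, Fcrla and Igkc of that list were well above background on no array. The lower dendritic cell sum of the siRNA arrays at day 2 was 7.99, and both lay below the range of 8.36 to 8.63 without siRNA. That sum was carried by Siglech (6.76 to 8.63 over the 12 arrays). The median level of the 10 dendritic cell markers was instead higher with siRNA at day 2, -2.24 and -2.03 against -3.18 to -2.30. Of these markers 9 and 7 were detected with siRNA, against 5 to 7 without. Xcr1 was detected on no array, Cd209a on 1 and Flt3 on 3. The monocyte sum was 3.89 to 4.31 against 4.76 to 5.71, the T and NK cell sum 6.03 to 6.46 against 5.90 to 6.26, and the neutrophil sum 2.27 to 2.86 against 1.18 to 2.25. Itgam (1.93 to 5.66 over the 12 arrays) was the brightest monocyte marker and Cd4 (5.52 to 6.92) the brightest of T and NK cells. Median marker levels at day 2 were higher with siRNA in both lists. They were -1.81 and -1.40 against -3.95 to -2.47 for monocytes, and -1.46 and -1.19 against -4.25 to -3.40 for T and NK cells. Sinusoidal endothelium (7.21 to 7.34 against 7.09 to 7.46) and hepatocytes (13.3 to 13.5 against 13.3 to 13.7), the latter with 12 of 12 markers detected, overlapped, as did stellate cells (7.71 to 7.79 against 7.61 to 7.76) and cholangiocytes (0.62 to 0.98 against 0.61 to 1.73).

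**Figure D4:**
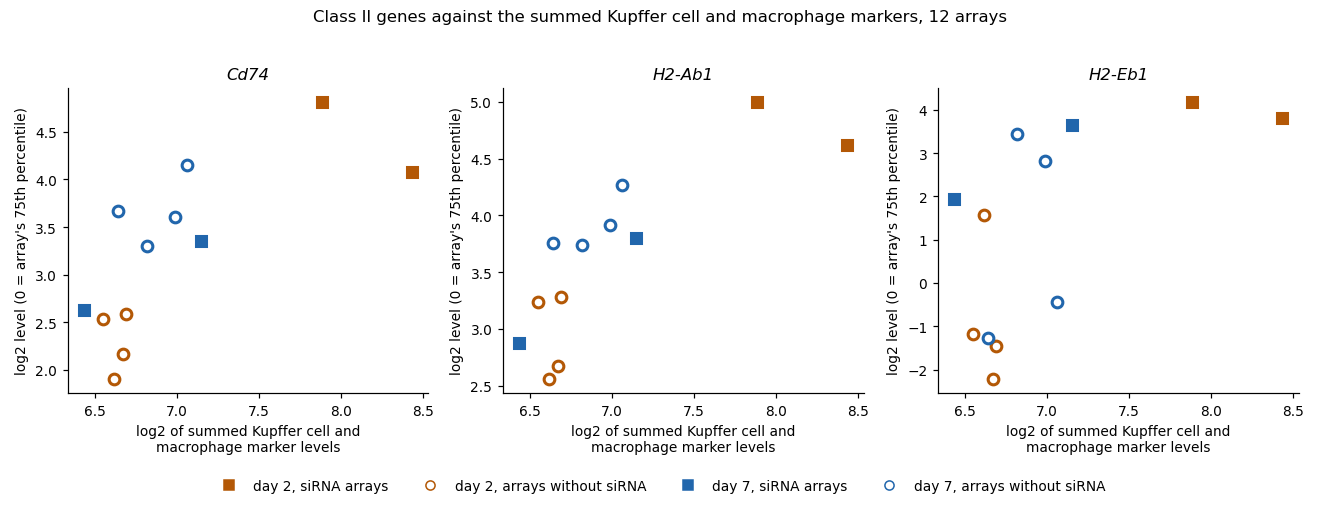
Log2 level of Cd74, H2-Ab1 and H2-Eb1 (vertical axes) against the log2 of the summed levels of 15 Kupffer cell and macrophage markers (horizontal axis), 1 point per array, filled squares for siRNA arrays. The siRNA arrays of day 2 lie at the right with sums of 7.88 and 8.43; H2-Eb1 is both low and high on arrays whose sums lie between 6.55 and 7.15.

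Day 7 against day 2 showed no common course. The mean of 6 pairs was 0.44 ± 1.60 (SD, n = 6 pairs) for Cd74, 0.16 ± 1.41 for H2-Ab1, 0.90 ± 2.40 for H2-Eb1, 0.07 ± 0.85 for H2-DMa, -0.34 ± 1.64 for H2-Aa and -0.59 ± 1.72 for H2-DMb1. Taken by treatment, with 1 array per time, 6 of the 6 bright genes were higher at day 7 in vehicle (by 1.00 to 1.99 units) and in ATRA (by 0.80 to 1.70), where 55.8% and 57.4% of all genes were higher. With control siRNA and with G0s2 siRNA 6 of 6 were lower at day 7, by 0.18 to 1.03 and by 0.99 to 2.26 units, where 47.0% and 46.5% of all genes were lower. In DEN and in ATRA+DEN 4 of 6 were higher, where 54.8% and 56.1% of all genes were. Across all genes limma, with Benjamini-Hochberg adjustment, called 5571 (26.3%) higher and 4351 (20.5%) lower at day 7. With the percentile taken over probes detected on all arrays, 2455 were higher and 6148 lower, since that scaling shifted every day difference by -0.25 units.

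Other genes of the class II route included several that were not detected. H2-Ea, the alpha chain that pairs with H2-Eb1, listed on the array as H2-Ea-ps, was well above background on 0 of 12 arrays, as were H2-Eb2 and H2-DMb2. Of the chains of H2-DO, which restrains H2-DM, H2-Oa was detected on 1 array and H2-Ob on at most 3. Of 13 tested partners of class II presentation, limma called none for DEN, ATRA or G0s2 siRNA. Their median difference was 0.23 for DEN, where that of all genes was -0.02, and -0.23 for G0s2 siRNA, where it was 0.06. For ATRA it was -0.02, where that of all genes was 0.00. Ifi30, the lysosomal thiol reductase, differed by 0.33 ± 0.10 (SE) for DEN, higher in 4 of 4 pairs (limma, adjusted p = 0.307). Cd86, a costimulatory ligand, differed by -0.77 ± 0.39 for G0s2 siRNA, lower in 2 of 2 pairs (limma, adjusted p = 0.698). For day the partners' median was -0.03 against 0.11 over all genes, 1 of 13 was called higher (Ifi30, 0.67) and 3 lower, where 26.3% and 20.5% of all genes were. The 3 were Marchf1, the ligase that sends class II to degradation (-2.70 ± 0.33, limma adjusted p = 0.00126), Cd80 (-0.68) and H2-Ob, which was well above background on only 3 of 12 arrays and is given no value. The Marchf1 value holds for its brightest probe. A second Marchf1 probe, well above background on all 12 arrays, ranged only from -2.17 to -0.46, too narrow for a fall of that size.

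Of 13 tested factors of the class II promoter, none was called for DEN, ATRA or G0s2 siRNA (medians 0.00, 0.00 and -0.11). Among those detected on all arrays, Kat2b, an acetyltransferase, differed by -0.13 for DEN in 4 of 4 pairs. For ATRA, 2 subunits of NF-Y went opposite ways, Nfyb by 0.26 and Nfyc by -0.16, each in 4 of 4 pairs. For day, 5 of 13 were called higher and 1 lower, with a median of 0.30, where 26.3% of all genes were called higher and 20.5% lower with a median of 0.11. NF-Y subunits Nfya (0.92), Nfyb (0.66) and Nfyc (0.30) and the RFX subunits Rfxank (0.96) and Rfxap (0.63) were higher at day 7, and the acetyltransferase Ep300 was lower (-0.52). With the percentile over detected probes Nfyc was at 0.05 and the others kept their sign.

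Of 20 tested genes of MHC class I presentation, none was called for DEN, ATRA or G0s2 siRNA (medians -0.05, -0.05 and 0.01), and 2 of 20 rose and 2 fell with day (median 0.19), where 26.3% of all genes rose and 20.5% fell. Tap1, a subunit of the peptide transporter, differed by 0.94 ± 0.12 (SE) for DEN, higher in 4 of 4 pairs (limma, adjusted p = 0.194), and Pdia3, a chaperone of peptide loading, by -0.40. H2-D1, a class I heavy chain, differed by -1.08 ± 0.48 for ATRA, lower in 4 of 4 pairs (limma, adjusted p = 0.875), and Tapbp, the peptide editor tapasin, by 0.44. With day, Psme1 (0.87) and Tapbpl (0.52) rose, and Erap1 (-0.83) and H2-Q4 (-0.70) fell. Of 22 tested genes of the interferon gamma response, which induces Ciita, none was called for DEN, ATRA or G0s2 siRNA (medians 0.16, 0.08 and -0.23). Iigp1, a guanosine triphosphatase, differed by 0.70 for DEN and Socs1, a feedback inhibitor, by -0.63, each in 4 of 4 pairs. Socs1 differed by 0.89 for ATRA in 4 of 4 pairs, and the chemokine Cxcl10 by -1.02 for G0s2 siRNA in 2 of 2. With day, 2 of the 22 rose (Ifngr2, 0.91, and Jak1, 0.68) and 3 fell (Gbp5, -1.24, Gbp7, -1.13, and Iigp1, -0.62), with a median of -0.09, against the same 26.3% and 20.5% of all genes.

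The 5 named genes most like the mean of the 6 bright class II genes over the 12 arrays, after each day's mean was subtracted, were Tm9sf4 (r = 0.975), the receptor kinase Axl (0.972), the leukocyte receptors Pira11 (0.969) and Pira7 (0.966), and the chemokine receptor Ccr3 (0.958). Pira genes are near-identical copies, and their probes may not tell them apart. Taken 1 gene at a time, a choice made after the values were seen, and with unnamed transcripts left out, the lists differed. Cd74 and H2-Ab1 shared Cyth4 (0.947 and 0.957), the macrophage lectin Siglec1 (0.931 and 0.952), the folate receptor Folr2 (0.925 and 0.948) and Cxcl9 (0.942 and 0.938) among their first 5. H2-DMa was most like Tm9sf4 (0.967), and the cathepsin Ctss, which trims the invariant chain, was among its first 5 (0.951).

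For H2-Aa and H2-DMb1 the named gene most like them outside the set was H2-D1 (0.891 and 0.884), and H2-K1, the other class I heavy chain, was the next for H2-Aa (0.887). Among named genes H2-Eb1 was most like Srf (0.931), a transcription factor of growth response, and Nagpa (0.913), and Msh5 (0.885), a meiotic recombination protein, was among its first 5. H2-D1, H2-K1, Srf and Msh5 lie on chromosome 17, which carries the MHC and all 5 H2 genes of the set. Of the 50 genes most like H2-Aa, 12 lie on that chromosome, and 10 of 50 for H2-DMb1, 9 for H2-Eb1, 7 for H2-DMa, 4 for Cd74 and 3 for H2-Ab1. Over all 15743 genes compared, 826 (5.25%) lie there, and these shares were not tested. Between the outermost H2 probes (chr17:34274300-34453134, mm9), 5 other genes were tested. Psmb9, Tap1, Psmb8 and Tap2 spanned 1.42, 1.86, 1.62 and 0.77 units over the 12 arrays, and H2-Ob, dim on most arrays, 2.89, all less than H2-Aa, H2-DMb1 or H2-Eb1.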

How the data were processed

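The authors' deposited array files hold spot intensities that Agilent Feature Extraction had background-subtracted and detrended, per the file headers (version 10.7.1.1; the submitters' processing notes name 9.5.1.1). Each intensity was log2 transformed, and the 75th percentile of the array was subtracted. Control spots were left out, and repeat spots of a probe were averaged, which gave 55681 probes. Probe positions are mm9, per the file headers. Probes were named through RefSeq by accession (27235), symbol (3581) or synonym (565), and 24300 kept the array's name. A gene was represented by its brightest probe and tested if that was well above background on at least 2 arrays; 21181 genes remained, and 5 with a missing value were left out. The deposited series table of intensities was used only within a day, as an alternative.

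With 1 array per group, arrays of 1 day that differ in 1 agent were paired. limma 3.58.1 in R 4.3.3 (lmFit and eBayes, pair as block, Benjamini-Hochberg over all genes, threshold 0.05) was fitted to 4 DEN pairs and 2 siRNA pairs together, to 4 ATRA pairs, and to 6 day pairs with treatment as block, and was tested on simulated data. Whether samples came from separate animals is not given, so p-values measure only the spread between these arrays.

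The class II genes, the 4 gene lists (partners, promoter factors, class I presentation, interferon gamma response) and the cell type markers were chosen with earlier results of these data known. Named are the 7 class II genes, up to 4 called genes per list and fit or, where none was called, genes with the largest rise or fall of 1 sign in every pair, the 5 genes most like the mean of the bright class II genes, and label checks. A probe not well above background in 1 group has a bound. It was set against the dimmest probe well above background on that array, or against the probe's own reading where that was higher. Alternatives were other scalings, normexp background correction (offset 50), the mean over probes, other filters, the series table, each pair left out, slide as block, and day-7 groups from the characteristic.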

Additional observations from a re-analysis of the deposited data

Results flagged for a closer look

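By the titles, the DEN difference of 5 class II genes had 1 sign in both pairs of day 2. It had the opposite sign in both pairs of day 7, higher with DEN at day 2 and lower at day 7. Of all genes tested, 5.84% did the same, and 6.07% did the reverse. The mean difference at day 7 minus that at day 2 was -2.50 units for H2-Aa, -2.42 for H2-DMb1, -1.12 for H2-DMa, -0.99 for H2-Ab1 and -0.92 for Cd74. At day 2 the means over the pairs were 1.45, 1.00, 0.64, 0.64 and 0.52 units, and at day 7 they were -1.05, -1.42, -0.47, -0.34 and -0.40, in that order of genes. H2-Eb1 was not among them, because its signs differed between the pairs of each day. These differences between days were not tested, and day and slide cannot be told apart. The pattern also rests on the titles of day 7. By the treatment characteristic, the arrays titled ATRA and DEN would form the day-7 pair with ATRA. H2-Ab1 (3.91 against 3.76, probe 1) and H2-DMa (-1.48 against -1.82) would then be higher with DEN and leave the pattern. Cd74 (3.60 against 3.67), H2-Aa (-0.77 against 0.35) and H2-DMb1 (-0.24 against 1.01) would stay lower. On probe 2, H2-Ab1 differed by -0.06 in the titled pair.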

How the results depend on the processing

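DEN and G0s2 siRNA called no gene in the main analysis. With normexp background correction 13 genes were called for DEN and 4 for G0s2 siRNA, and without the day-2 siRNA pair 1 was called for G0s2 siRNA, where leaving out 1 pair gave 0 to 1; the cause was not tested. The other 44 counts of called genes stayed within 1.5 times the main count. Of 325 recomputed mean differences of class II genes, 321 moved by less than the spread over pairs. Leaving out 1 pair cannot move a mean that far, and the other filters kept the main values, so these settings could not show instability. Some signs turned within that limit. The mean DEN difference of H2-Eb1 was -0.55 in the main analysis and 0.27 when ATRA+DEN minus ATRA of day 2 was dropped. For H2-Aa these values were 0.20 and -0.49. Groups from the treatment characteristic at day 7 turned the sign of the mean ATRA difference of H2-DMb1 to 0.22, and moved H2-Eb1 (0.52 for ATRA and 1.50 for DEN) and H2-Aa (-0.04 for ATRA). Among values added after the data were seen, the correlation of Cd74 and H2-Eb1 turned to -0.53 without the siRNA arrays of day 2. The span of H2-DMb1 was 2.50 units with normexp. The gap of H2-Eb1 relative to Cd74 was 2.09 to 3.16 units under the other scalings. No paired analysis by replicate number was possible because each group holds 1 array. Low signal over background limits Ciita.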
